A study of Homo sapiens with 6 samples.

Results

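The siRIPK2_1 library is 1 of 4 knockdown libraries of U118, an established human malignant glioma line that the labels describe as astroblastoma cells. It was set against the other 5 libraries of the series: WT, siNC, siRIPK2_2, siRIPK2_3 and siRIPK2_4. WT is labelled wild type, siNC carries the negative-control label NC, and the siRIPK2 libraries are labelled RIPK2 knockdown. All 6 are labelled day 2, which the series' design text counts from siRNA transfection, and the labels do not say whether the WT cells were transfected. They came from cells kept in DMEM with fetal bovine serum. What the numbers 1 to 4 stand for, be it siRNAs, cultures or repeats, is not stated in the labels. Poly(A)-tailed RNA was sequenced, and levels are given in CPM, counts scaled by library size with TMM factors. Of 20263 listed genes, 10673 had a mean of 5 CPM or more over the 6 libraries, and siRIPK2_1 lay outside the range of the other 5 in 4694 of them (44%). The gap, the distance to the nearest of the other 5, is given on the log2(CPM + 1) scale. With 1 library there is no replicate of siRIPK2_1, so all that follows is a description of values, with no test of a difference. Fewer cells of a kind and less RNA per cell cannot be told apart in such bulk samples.

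RIPK2 is a kinase that binds the activated receptors NOD1 and NOD2, sensors of bacterial cell wall fragments, and passes their signal to NF-kB and MAP kinases. A small interfering RNA is loaded into an Argonaute protein and cuts a transcript that pairs with its whole length. Its seed, the bases near its 5′ end, can also pair with short matches in the 3′ UTR of other transcripts and lower them, as microRNAs do.

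The RIPK2 gene (ENSG00000104312, GRCh38 chr8:89757747-89791063, plus strand) read 56.8 CPM in WT, 43.4 in siNC, 3.86 in siRIPK2_1, 11.8 in siRIPK2_2, 6.29 in siRIPK2_3 and 4.32 in siRIPK2_4. Its level in siRIPK2_1 was thus 6.79% of WT and 8.89% of siNC. It was the lowest of the 6, but only 0.13 below siRIPK2_4 on the log2 scale. The target itself therefore lies just outside the range, and the genes described next lie much farther out.

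Total counts were 38798207 in siRIPK2_1 and 33540619 to 45309423 over all libraries. Genes with 10 or more counts numbered 13602 in siRIPK2_1 and 13390 to 13823 over all 6, and mitochondrially encoded transcripts took 4.71% of its counts, against 4.10% to 4.64% in the others. Of the 12 astrocyte and glioma markers, 6 averaged 1 CPM or more. VIM, an intermediate filament of mesenchymal and glial cells, read 5707 CPM in siRIPK2_1, while the astrocyte filament GFAP read 0.731 and the water channel AQP4 was at 0 counts in all libraries. The summed level of the 12 in siRIPK2_1 was 6319 CPM, inside the range of 4340 to 8202, and VIM made up most of it. Of the 6 that averaged 1 CPM or more, VIM, against 3803 to 7568, and CD44, at 389 CPM against 225 to 555, lay inside the range. Both were lower than the median of the other 5. The rest of the 6 stood above the range in siRIPK2_1. SOX9, a glial and progenitor transcription factor, read 122 CPM against 47.5 to 68.5, a gap of 0.82. SOX2, a stem cell factor whose mean was under 5 CPM, read 14 against 0.748 to 4.76. The progenitor filament NES read 73.1 against 18.5 to 69.1, a gap of only 0.08. The glutamate transporter SLC1A3 read 13.1 against 3.53 to 11.8, a gap of 0.14. The leukocyte marker PTPRC and the microglial marker AIF1 were at 0 counts in siRIPK2_1, and the 8 macrophage markers summed to 142 CPM, inside 95.2 to 167, with CD68 making up 138. The 6 endothelial markers summed to 7.54 CPM, against 2.04 to 7.23 elsewhere, and the 7 epithelial markers to 7.56, inside 5.50 to 13.1. The 6 fibroblast and pericyte markers summed to 1319 CPM in siRIPK2_1, below the 1926 to 3652 of the others, and COL1A1 made up most of that sum.

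Outside by any distance were 2356 genes above (22.1% of genes tested) and 2338 below (21.9%). By a gap of 1.5-fold or more, 169 genes were above (1.58%) and 382 below (3.58%). By 2-fold or more, 27 were above (0.253%) and 119 below (1.11%). When each other library was set against its own 5 counterparts at 1.5-fold, the count above was 18 in WT (0.169%), 64 in siNC (0.6%), 61 in siRIPK2_2 (0.572%), 102 in siRIPK2_3 (0.956%) and 56 in siRIPK2_4 (0.525%). The count below was 24 in WT (0.225%), 275 in siNC (2.58%), 205 in siRIPK2_2 (1.92%), 294 in siRIPK2_3 (2.75%) and 268 in siRIPK2_4 (2.51%). siRIPK2_1 had the highest count of the 6 in both directions, and all 6 libraries had more genes below than above. COTL1, with a gap of -0.59, was just past 1.5-fold below, and UNKL, with -0.58, just short of it. Above, BEND3 and ZNF41 had gaps of 0.59 and 0.58 on either side of the same limit.

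**Figure D1:**
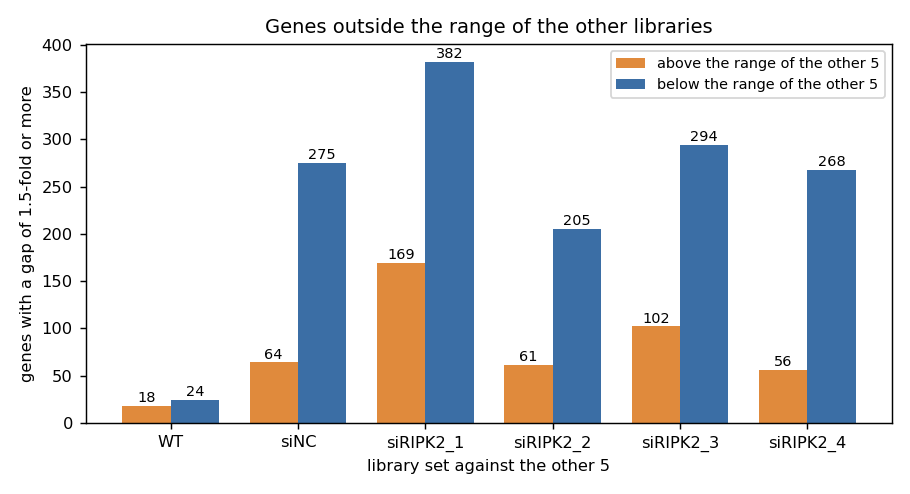
Genes whose level in 1 library lies above (orange) or below (blue) the range of the other 5 by 1.5-fold or more, among 10673 genes. siRIPK2_1 has the tallest bar in both directions, with 169 above and 382 below, and WT the shortest, with 18 and 24.

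The gene farthest below was PTX3 (ENSG00000163661, GRCh38 chr3:157436789-157443628, plus strand), which encodes the secreted pattern recognition protein pentraxin 3. It read 393 CPM in WT, 777 in siNC, 533 in siRIPK2_2, 522 in siRIPK2_3 and 450 in siRIPK2_4, and 69.5 in siRIPK2_1. Its gap was -2.48, and siRIPK2_1 stood at 13.3% of the median of the others. ANXA2 (ENSG00000182718, chr15:60347134-60402883, minus strand), a calcium-dependent membrane-binding annexin, came next. It read 2611 CPM in WT, 3583 in siNC, 1959, 2490 and 2314 in siRIPK2_2 to siRIPK2_4, and 361 in siRIPK2_1, a gap of -2.44. Both genes kept the other 5 libraries within a 2-fold span of one another, and only siRIPK2_1 was far from them.

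CD164 (ENSG00000135535, chr6:109366514-109382812, minus strand) encodes endolyn, a sialomucin of endosomes, lysosomes and the cell surface. It read 166 CPM in WT, 152 in siNC, 30.9 in siRIPK2_1 and 235, 198 and 175 in siRIPK2_2 to siRIPK2_4, a gap of -2.26. RARG (ENSG00000172819, chr12:53210567-53232980, minus strand) encodes the retinoic acid receptor gamma. It read 79.0, 66.7, 14.6, 84.2, 85.5 and 87.2 CPM in WT, siNC and siRIPK2_1 to siRIPK2_4, a gap of -2.12. The 3 other knockdown libraries of RARG were nearly equal, and siRIPK2_1 was the only low one.

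The other genes among the 15 largest gaps below have varied roles. AAGAB, which assists the assembly of clathrin adaptors, read 14.9 CPM in siRIPK2_1 against 61.4 to 85.5. TRIM56, a ubiquitin ligase of antiviral signalling, read 6.23 against 27.1 to 65.0. PRAF2, a membrane protein of the endoplasmic reticulum, read 5.80 against 25.1 to 28.9.

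Next in the same set were genes of receptor uptake and others. TFRC, the transferrin receptor that brings iron into cells, read 98.2 CPM in siRIPK2_1 and 486, 320, 461, 645 and 402 in WT, siNC and siRIPK2_2 to siRIPK2_4. SNX17, a sorting nexin that recycles receptors from endosomes, read 61.2 against 196 to 251. SHKBP1, named for binding the adaptor SH3KBP1 of receptor endocytosis, read 15.8 against 56.6 to 73.0.

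PRRX1, a homeobox factor of mesenchymal cells, read 42.3 CPM in siRIPK2_1 against 137 to 227. MARVELD1, a MARVEL domain membrane protein, read 20.3 against 72.9 to 130. BCL2L12, a BCL2-related protein, read 6.50 against 23.3 to 51.1, and PNKD 3.68 against 14.7 to 21.8. None of those named had fewer than 146 counts in siRIPK2_1, the number of PNKD, so counting error is small beside these gaps. The strand setting of the counting is not given in the sources used here. PTX3 shares exonic sequence with VEPH1, AAGAB with IQCH, PRAF2 with WDR45, BCL2L12 with IRF3 and SNX17 with ZNF513, and reads of the paired genes cannot be told apart.

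**Figure D2:**
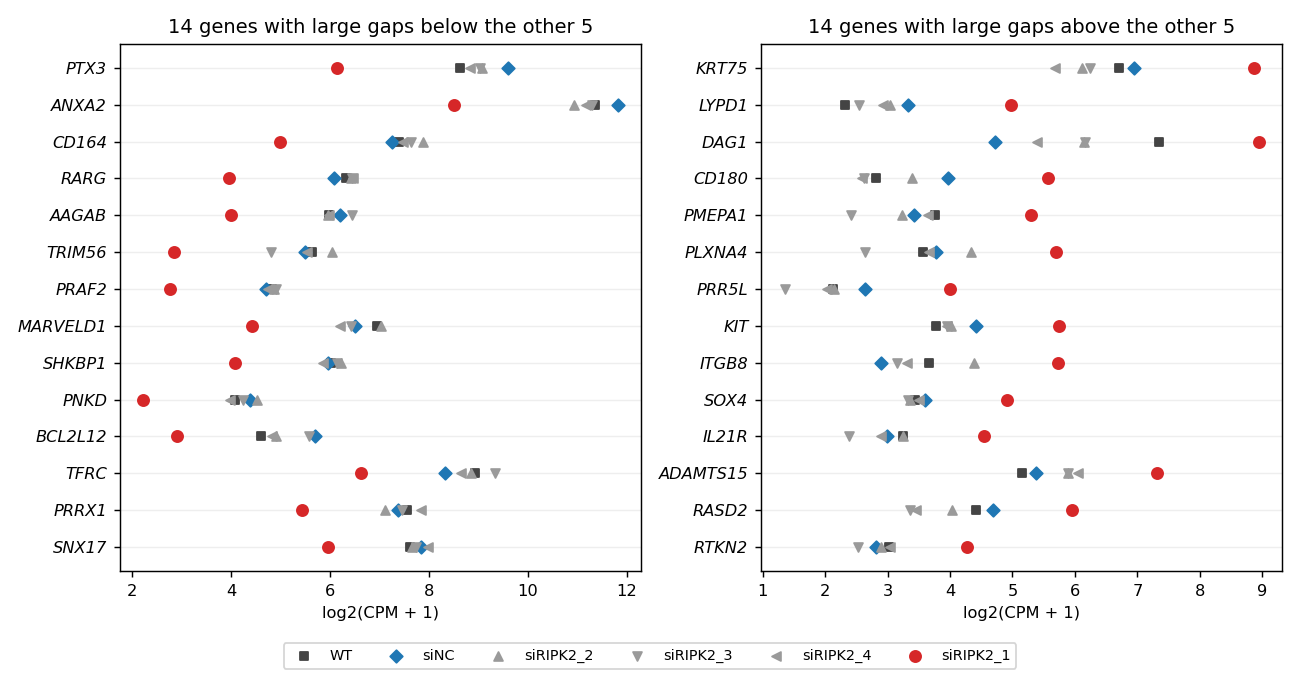
Levels on the log2(CPM + 1) scale of 14 of the 15 genes with the largest gaps below (left) and 14 of the 15 with the largest gaps above (right) the range of the other 5 libraries, 1 point a library. The red siRIPK2_1 point stands alone in each row, from PTX3 at 69.5 CPM against 393 to 777, to KRT75 at 467 CPM against 50.2 to 122.

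The 3′ UTRs of the genes below were then read for short sequences, which the choice of genes did not use. Of the 16384 possible heptamers, the one whose share differed most between the genes below by 1.5-fold or more and the remaining genes was GCCAAAG. It was chosen after the values were seen. It occurred in the 3′ UTR of 128 of 368 such genes (34.8%) and of 1104 of 10036 others (11%), counting genes with an annotated 3′ UTR of 50 bases or more. Among the 15 farthest below, 10 held it: PTX3, ANXA2, RARG, AAGAB, TRIM56, MARVELD1, SHKBP1, TFRC, PRRX1 and SNX17. CD164, PRAF2, PNKD and BCL2L12 were among those without it. The following windows show the heptamer in capitals for the holders just named except SNX17. Windows of LAMC1 and FN1, which are not among the 15, are added. The windows were chosen for holding the heptamer, so that they share it follows from the choice. All are read from the annotated transcripts, 5′ to 3′ on the gene's strand, in GRCh38.
PTX3, chr3:157442993-157443017, plus strand: ccacttgaaGCCAAAGaaagaaact
ANXA2, chr15:60347430-60347454, minus strand: ctcctgtaaGCCAAAGaaatgaaca
RARG, chr12:53211527-53211551, minus strand: cttgtttttGCCAAAGtttctaggg
AAGAB, chr15:67201928-67201952, minus strand: ctctttaaaGCCAAAGagagatcac
TRIM56, chr7:101090189-101090213, plus strand: gcagctgggGCCAAAGaggtgttag
MARVELD1, chr10:97715823-97715847, plus strand: agaaatgaaGCCAAAGttattcaga
SHKBP1, chr19:40591351-40591375, plus strand: tttctggaaGCCAAAGtcaccctcc
TFRC, chr3:196051275-196051299, minus strand: ggaccagaaGCCAAAGacttagtat
PRRX1, chr1:170736668-170736692, plus strand: tttcgaaaaGCCAAAGtctttctga
LAMC1, chr1:183143308-183143332, plus strand: acatcctgtGCCAAAGgtattggtc
FN1, chr2:215360905-215360929, minus strand: actgtatgtGCCAAAGctttactac
AAGAB and TFRC held 2 copies each, and PRRX1 held 3.

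The share with the heptamer followed the size of the gap. The heptamer was picked from these same gaps, so the shares and differences in this paragraph are partly set by that choice. It was 54.7% of 117 genes below by 2-fold or more, 25.5% of 251 below by 1.5- to 2-fold and 15% of 1898 below by less. Inside the range it was 10.8% of 5832 genes. Above the range it was 8.30% of 2144 genes with a gap under 1.5-fold and 6.17% of 162 with a larger one. Median 3′ UTR lengths in these 6 classes were 1228, 911, 822, 1221, 1497.5 and 2100.5 bases in the same order, so among the genes below length moved with the share, and above the range the 3′ UTRs were longest where the share was lowest. Read the other way, 2.62% of 9172 genes with no copy were below by 1.5-fold or more, 10.1% of 1070 with 1 copy, 10.3% of 136 with 2 and 23.1% of 26 with 3 or more. The median difference of siRIPK2_1 from the other 5 was 0.02, -0.16, -0.17 and -0.44 on the log2 scale in the same order. The median 3′ UTR was 1041, 2749, 4916.5 and 6773.5 bases long in that order, and the part of length in these differences was not tested here beyond the 3′ UTRs of 500 to 2000 bases, where the heptamer was in 41.4% of the genes below and 6.35% of the others. Only 26 genes stand behind the last value, and siNC had a median difference of 0.30 for those genes.

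In the coding sequence the heptamer was in 31.9% of 379 genes below by 1.5-fold or more and in 20.2% of 10618 genes tested, although the coding sequences of the former were shorter, at a median of 966 against 1425 bases. In the 5′ UTR the shares were 1.47% and 1.56%. The genes that lay below in another library by 1.5-fold or more held the heptamer in the 3′ UTR in 13% of cases for WT, 8.99% for siNC, 9.41% for siRIPK2_2, 11% for siRIPK2_3 and 12.9% for siRIPK2_4. All 10404 genes with a 3′ UTR held it in 11.8% of cases. The heptamer was picked for its share in siRIPK2_1, so its lower shares in the other libraries are not independent of that choice. By the same rule, the leading heptamer of siRIPK2_3 was CTGGAAA, in 52.8% of its genes below against 20.4% of the others, and that of siRIPK2_4 was GATCACA, at 42.6% against 9.06%. In WT, with 23 genes below, it was CTCCCCC, at 52.2% against 15.8%. In siNC it was AAATATT, at 54.7% against 33.8%, and in siRIPK2_2 TATTTTT, at 64.4% against 49.4%. The difference was 23.8 percentage points in siRIPK2_1, 36.4 in WT, where it rests on 12 of 23 genes, and 20.9 in siNC. The numbers of genes below and the shares in the others are unlike, so these differences are not on one scale. What they come from was not tested.

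The RIPK2 transcript holds GCCAAAG once, in its coding sequence, as do 23.9% of transcripts of similar length somewhere along them. It also holds once each the leading heptamers of siNC, siRIPK2_2, siRIPK2_3 and siRIPK2_4. Of transcripts of similar length, 29.1%, 41.2%, 32.4% and 13.7% hold these in the same order. The RIPK2 transcript does not hold that of WT, which 26.8% of them hold. What these matches come from was not tested. A seed that pairs with the whole heptamer reads CUUUGGC. None of the 2370 human mature microRNAs in the RefSeq table (GRCh38.p14) has these letters at bases 2 to 8. Partial matches were searched only over bases 2 to 7. These are shared by 1 of the 2370, hsa-miR-9-5p, a microRNA of the nervous system, shown with its seed in capitals.
hsa-miR-9-5p: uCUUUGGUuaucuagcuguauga
Its own site, ACCAAAG, was in the 3′ UTR of 15.5% of the genes below and 13.7% of all. The leading heptamer was picked for the largest difference, so setting the site beside it decides nothing. The siRNA sequences were not used here, so whether the heptamer pairs with a strand of the siRNA was not tested.

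**Figure D3:**
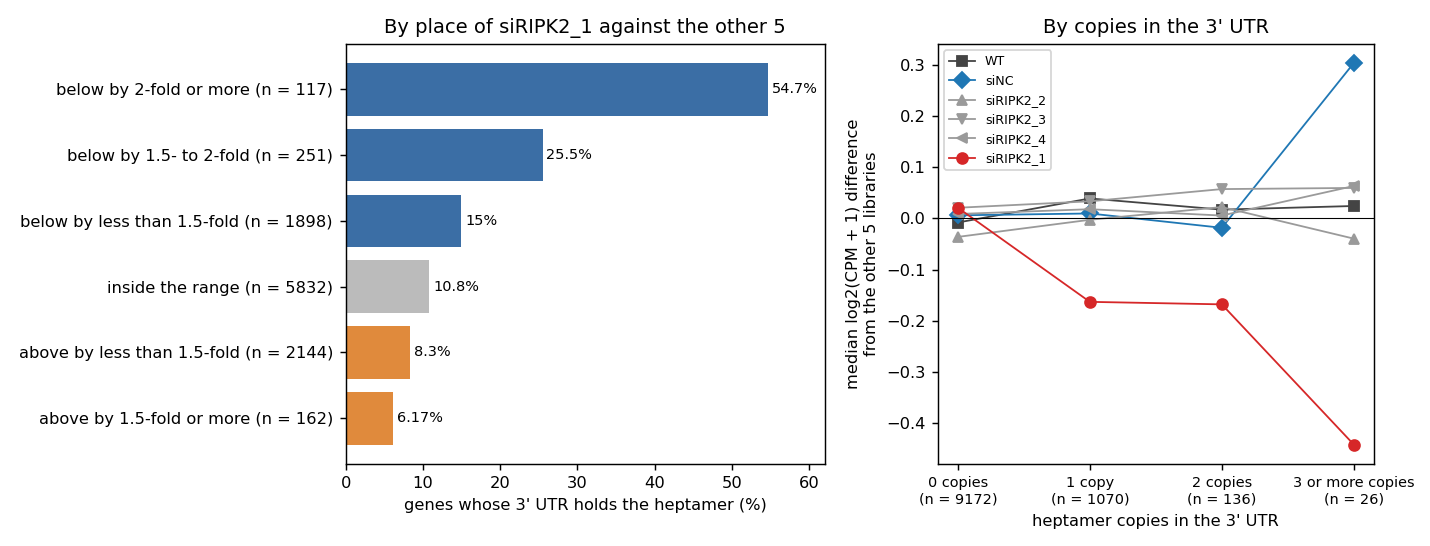
Left, the percent of genes whose 3′ UTR holds the leading heptamer, by where siRIPK2_1 lies against the other 5 libraries, from 54.7% of genes below by 2-fold or more to 6.17% of genes above by 1.5-fold or more. Right, each library's median log2(CPM + 1) difference from the other 5 by number of copies, where siRIPK2_1 (red) is at -0.16 with 1 copy and -0.44 with 3 or more.

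Above the range, KRT75 (ENSG00000170454, chr12:52424070-52434525, minus strand) stood farthest out. It encodes a type II keratin of the hair follicle. It read 103 CPM in WT, 122 in siNC, 467 in siRIPK2_1, and 68.0, 74.3 and 50.2 in siRIPK2_2 to siRIPK2_4, a gap of 1.93. LYPD1, a GPI-anchored modulator of nicotinic receptors whose exons overlap GPR39, read 30.4 CPM against 3.97 to 9. DAG1 (ENSG00000173402, chr3:49468703-49535618, plus strand), dystroglycan, which links laminin outside the cell to the cytoskeleton, read 161, 25.4, 491, 69.6, 70.6 and 41.0 CPM in WT, siNC and siRIPK2_1 to siRIPK2_4. WT was the next highest for DAG1, and the gap was 1.60. CD180, a relative of the Toll-like receptors known from B cells, read 46.3 CPM against 5.03 to 14.7, while PTPRC was at 0 counts as given above.

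Further genes above are given by what they encode, receptors first. PLXNA4, a plexin that receives semaphorin signals in axon guidance, read 50.7 CPM against 5.24 to 19.2. KIT, the receptor tyrosine kinase for stem cell factor, read 52.8 against 12.8 to 20.2. ITGB8, the integrin subunit that activates latent TGF-beta, read 51.9 against 6.48 to 20.

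IL21R, the interleukin 21 receptor, read 22.3 CPM against 4.2 to 8.49. PMEPA1, a TGF-beta-induced inhibitor of that pathway, read 38.2 against 4.33 to 12.6. SOX4, a transcription factor of progenitor cells, read 29.2 CPM against 9.02 to 11.1, so that the other 5 libraries were close together.

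ADAMTS15, a secreted protease of proteoglycans, read 158 CPM against 34.5 to 64.9. RASD2, a Ras-like GTPase of the striatum, read 61.1 against 9.31 to 24.8. PRR5L, a partner of mTORC2, read 15 against 1.56 to 5.26, and RTKN2 18.4 against 4.78 to 7.26. None of the 14 genes named here from the 15 farthest above held the leading heptamer in the 3′ UTR. As background to that count, 11.8% of all genes did.

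CENPF, a kinetochore protein of dividing cells and 1 of the 7 genes put forward from earlier results as marks of this library, read 332 CPM in siRIPK2_1, 225 in WT, 50.7 in siNC and 114, 140 and 131 in siRIPK2_2 to siRIPK2_4. Its gap of 0.56 fell just short of 1.5-fold, and was 1.24 without WT. PLAU, the urokinase-type plasminogen activator, went against its listing: it read 437 CPM in siRIPK2_1 but 587 in siNC. It was above WT at 257 and above the other knockdown libraries at 209, 211 and 191, and so lay inside the range of the 5.

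Gene lists were then read, each by how many measured members lay above or below the range, beside the 22.1% above and 21.9% below of all genes. Of 16 annexins and S100 partners, 0 were above and 11 below (68.8%), 3 of them by 1.5-fold or more, with a median difference of -0.52 from the median of the other 5. AHNAK, a giant scaffold protein that binds the ANXA2 and S100A10 complex, read 2049, 2643, 591, 1799, 2069 and 2425 CPM in WT, siNC and siRIPK2_1 to siRIPK2_4, a gap of -1.60. S100A6, a small calcium-binding protein, read 340 CPM against 678 to 1128. S100A10, the partner of ANXA2, chosen after its values were seen, read 143 against 176 to 629, with siRIPK2_4 also low. S100A13, whose exons overlap S100A1, read 26.7 against 35.1 to 59.6. ANXA2 holds the heptamer in its 3′ UTR, while AHNAK, S100A6, S100A10 and S100A13 do not.

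Of 9 measured genes of humoral innate immunity and complement, 0 were above and 7 below (77.8%), with a median difference of -0.94, the lowest of the 42 lists. Beside PTX3, C1R, a serine protease of the first complement component, read 48.4 CPM in siRIPK2_1 and 99.8, 111, 89.2, 95.4 and 80.0 in the others. CD59, which blocks the membrane attack complex, read 60.2 against 96.5 to 225. C1S, the second protease of that component, read 15.9 against 20.2 to 43.1. C1R overlaps C1RL and C1S overlaps EMG1 in their exons.

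Matrix glycoproteins numbered 3 above and 10 below among 32 measured, with a median difference of -0.13. The largest gaps were of major matrix components. LAMC1, the laminin gamma 1 chain, read 885, 1334, 243, 1112, 740 and 876 CPM in WT, siNC and siRIPK2_1 to siRIPK2_4, a gap of -1.60. FN1, fibronectin, read 8356, 9020, 2743, 7167, 9884 and 7074 in the same order, a gap of -1.37. FBN2, fibrillin 2, read 4.36 CPM against 14.5 to 26.2, with exons that overlap SLC27A6, and the proteoglycan DCN read 8.22 against 23.2 to 38.6. LAMC1, FN1 and FBN2 hold the heptamer in the 3′ UTR, FBN2 in 3 copies, and DCN only in its coding sequence. Collagens went the other way in number, with 7 of 18 above and 4 below. COL12A1 read 147 CPM against 58.4 to 95.6, and COL1A1 1224 against 1666 to 3434.

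Receptors and cell surface molecules were mixed. Integrins had 3 of 14 above and 4 below. Beside ITGB8, ITGA3, the alpha chain of a laminin receptor, read 1298 CPM against 1996 to 2901. The list of sialomucins and other cell surface glycoproteins held 1 of 15 above and 3 below. In that list CD164 was far below, and PODXL, podocalyxin, read 440 CPM against 65.0 to 275. Keratins had 2 of 6 above and 2 below: KRT80 read 63.4 CPM against 8.22 to 27.5, KRT10 8.95 against 13.5 to 20.2, and KRT16 2.95 against 4.65 to 55.7.

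The retinoid list divided between its receptors. Of 10 genes, RARG was the only one below, and 6 were above (60%), with a median difference of 0.33. RARA, the alpha receptor, read 129 CPM in siRIPK2_1 against 39.7 to 98.1. CYP26B1, an enzyme that breaks down retinoic acid, read 68.5 against 9.98 to 53.4. The gaps of RARA and CYP26B1 were 0.39 and 0.35, both under 1.5-fold, and that of CYP26B1 was 0.60 without siNC.

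Of 43 genes of DNA replication and S phase, 30 were above (69.8%, against 22.1% of all genes), 4 of them by 1.5-fold or more, and 1 was below, with a median difference of 0.35. CDT1, which loads the MCM helicase onto origins, read 81.9, 88.4, 162, 61.1, 78.8 and 70.6 CPM in WT, siNC and siRIPK2_1 to siRIPK2_4, a gap of 0.87. GINS4, a subunit of the replicative helicase, read 39.0 against 11.1 to 23.1, RRM2, the small subunit of ribonucleotide reductase, 341 against 75.5 to 209, and E2F2, a transcription factor of S phase genes, 56.9 against 14.1 to 35.3. The single gene below was MCM3, a helicase subunit chosen after its values were seen, at 150 CPM against 171 to 222. siRIPK2_2 had a median difference of -0.55 for this list, and the remaining libraries lay between -0.10 and 0.09.

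Since these genes stood above together, their promoters were searched on both strands for 4 E2F-type octamers, TTTCCCGC beside its variants TTTCGCGC, then TTTGCCGC, and also TTTGGCGC. The window ran from 250 bases before to 50 after the start in the RefSeq table (GRCh38.p14). They were in 59.5% of the 37 list promoters in the table, 5.68% of those of 8789 genes tested and 3.33% of all 27305. Among all genes above the range, in the list or not, they were in 7.34% of 1935 promoters. Among those above by 1.5-fold or more they were in 6.57% of 137. Both shares were near that of the genes tested. Within the list, 60% of 25 promoters of genes above and 58.3% of 12 of the others held one, so the motif was about as common in the rest of the list as in the genes above. The 150 bases before the start are shown for CDT1 and E2F2, chosen as genes above by 1.5-fold or more whose promoters hold an octamer, which is in capitals.
CDT1, chr16:88803639-88803788, plus strand: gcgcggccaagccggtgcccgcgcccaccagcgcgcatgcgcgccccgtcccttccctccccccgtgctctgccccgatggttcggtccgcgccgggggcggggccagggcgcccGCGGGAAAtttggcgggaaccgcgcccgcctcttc
E2F2, chr1:23531234-23531383, minus strand: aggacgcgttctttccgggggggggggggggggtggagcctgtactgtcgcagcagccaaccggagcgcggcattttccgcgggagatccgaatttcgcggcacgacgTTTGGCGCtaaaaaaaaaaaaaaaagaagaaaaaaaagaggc

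Mitosis and kinetochore genes were above in 20 of 50 cases (40%) and below in 0, none by 1.5-fold, and 44 of 50 were higher than the median of the others. The median difference was 0.37 in siRIPK2_1 but 0.48 in siRIPK2_4, so this list did not single out siRIPK2_1, and it was -0.75 in siRIPK2_2. SGO2, a protector of centromeric cohesion, read 55.2 CPM against 15.5 to 41.4, BUB1B, a spindle checkpoint kinase, 132 against 77.1 to 99.3, and TTK, the checkpoint kinase MPS1, 66.0 against 25.1 to 51.3. SGO2 overlaps KCTD18 and BUB1B overlaps the readthrough gene BUB1B-PAK6. The histone list, of which 5 genes were measured, had 0 above and 3 below. H1-2, a linker histone, read 5.14 CPM against 13 to 27.8.

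**Figure D4:**
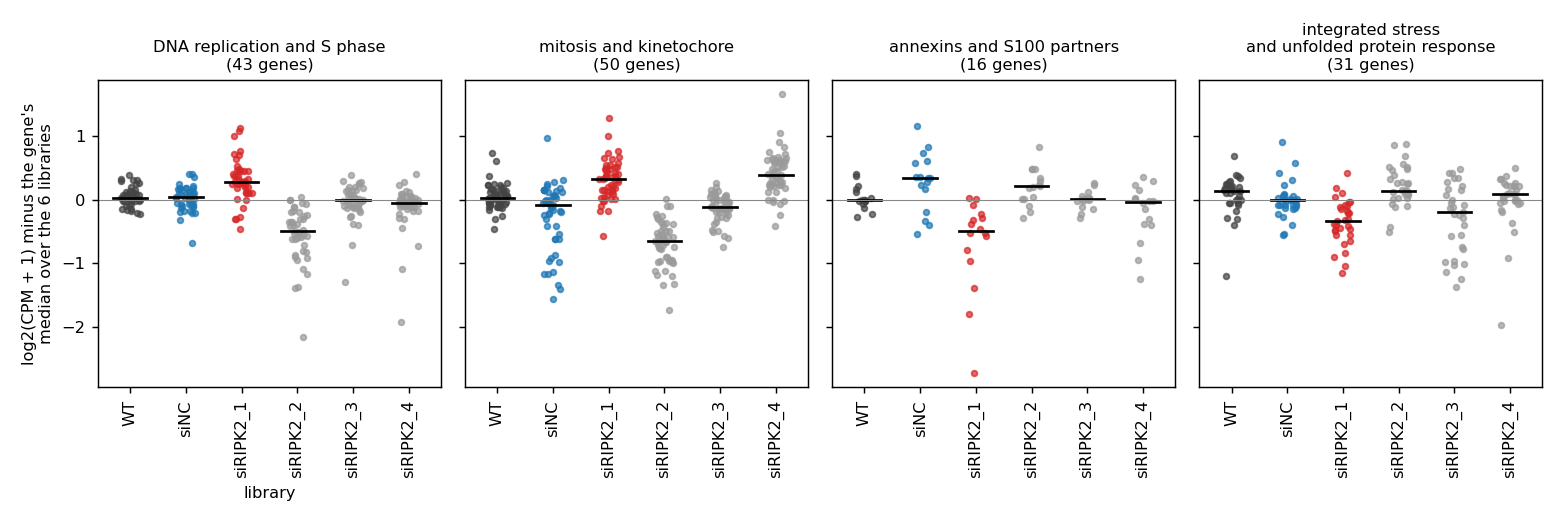
Members of 4 gene lists, 1 point a gene, as log2(CPM + 1) minus the gene's median over the 6 libraries, with black bars at the medians. In siRIPK2_1 (red) 30 of 43 replication genes and 20 of 50 mitosis genes lie above the other 5 libraries, and 11 of 16 annexin and S100 genes and 11 of 31 stress response genes lie below them.

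Chromatin regulators of the SWI/SNF and related families were above in 13 of 25 cases (52%) and below in 1, with a median difference of 0.27. SMARCC1, a core SWI/SNF subunit, read 222 CPM against 82.9 to 142, and ARID1A, its DNA-binding subunit, 198 against 99.6 to 147. The integrated stress and unfolded protein response had 0 of 31 above and 11 below (35.5%), with a median difference of -0.46. siRIPK2_3 was also low for this list, at -0.30, and the remaining libraries lay between -0.01 and 0.23. TRIB3, a pseudokinase induced by ATF4, read 108 CPM in siRIPK2_1 against 214 to 447. ATF3, a stress-induced transcription factor, read 8.17 against 15.3 to 23.4. ASNS, asparagine synthetase, read 34.1 against 52.1 to 80.4, and XBP1, a factor of the unfolded protein response, 58.1 against 84.5 to 194. TRIB3 and ATF3 hold the heptamer in the 3′ UTR, and ASNS and XBP1 do not.

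Ribosomal protein genes of the cytosol were above in 0 of 38 cases and below in 19 (50%), with a median difference of -0.35, close to the -0.31 of siRIPK2_2. RPS23, whose exons overlap ATG10, read 82.8 CPM against 200 to 258, and was the only one below by 1.5-fold. Nuclear genes of oxidative phosphorylation had 2 of 30 above and 15 below (50%), with a median difference of -0.24. NDUFA1 and NDUFB3, small subunits of complex I, read 12 against 24.1 to 34.8 CPM and 12.5 against 23.9 to 31.5, while ATP5F1A, the alpha subunit of ATP synthase, read 527 against 248 to 290. NDUFA1 overlaps RNF113A, NDUFB3 overlaps HYCC2 and ATP5F1A overlaps HAUS1. The 13 mitochondrially encoded transcripts had 6 above and 0 below, at a median difference of 0.23, against 0.21 in siNC. That median became 0.58 with the trend on transcript length and GC content removed and 0.11 against WT and siNC alone. The gaps of NDUFA1 and NDUFB3, -0.94 and -0.89, became -0.57 and -0.56 once a trend on transcript length and GC content was removed.

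**Figure D5:**
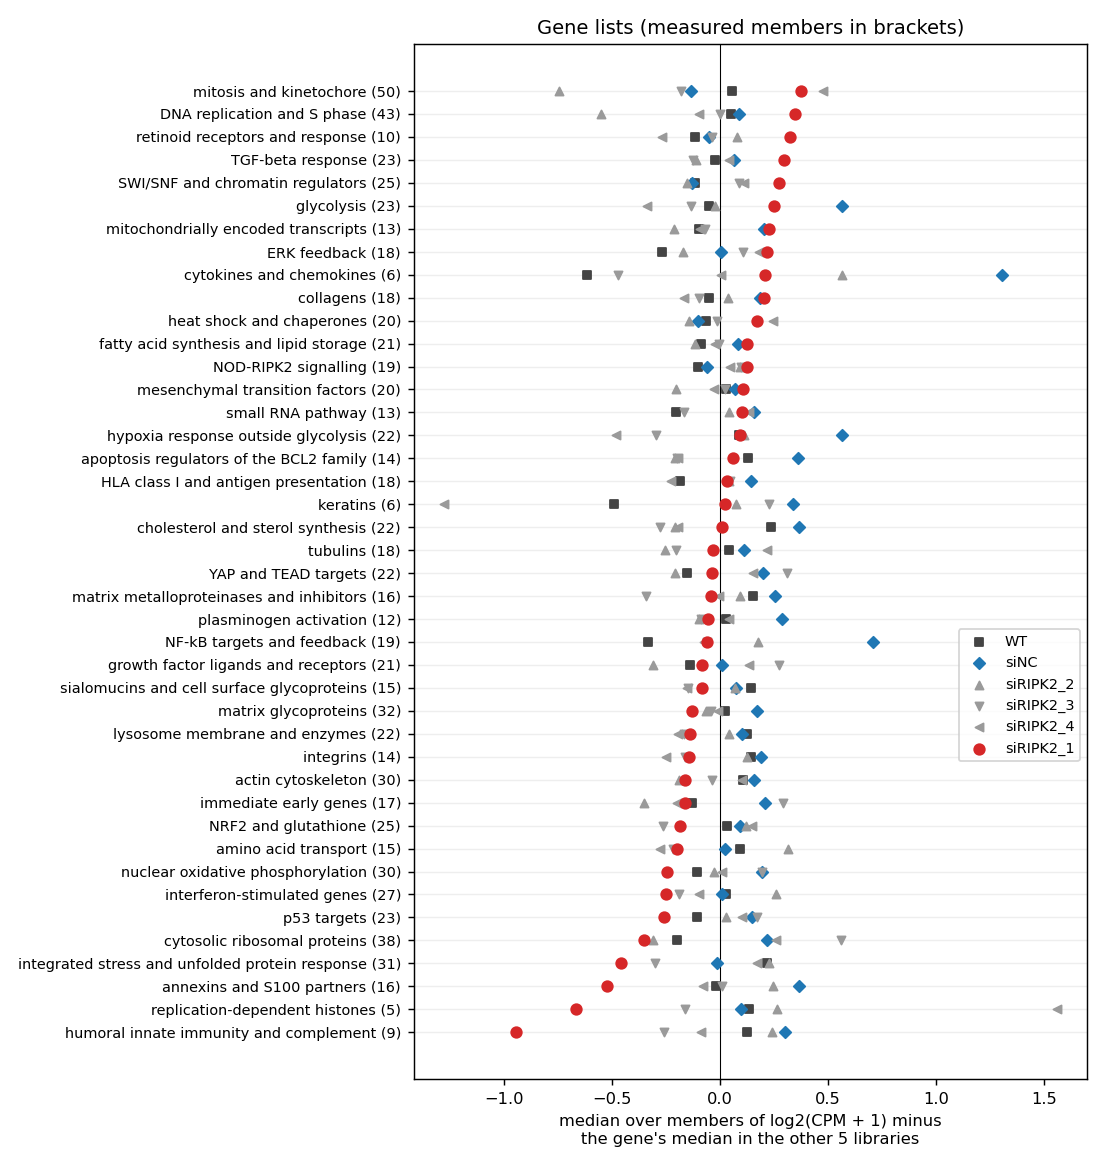
Median over the measured members of each of 42 gene lists of the log2(CPM + 1) difference of a library from the gene's median in the other 5, with siRIPK2_1 in red. It lies at the far left for humoral innate immunity and complement (-0.94), histones (-0.67) and annexins and S100 partners (-0.52), and at the far right among the 6 for DNA replication (0.35).

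In the TGF-beta response, 10 of 23 genes were above and 4 below, with a median difference of 0.30. PMEPA1 was above, while ACTA2, the smooth muscle actin, read 2.60 CPM against 6.92 to 14.7 with exons that overlap FAS, and TGFBR3, betaglycan, 20.2 against 34.2 to 79.0. Actin cytoskeleton genes had 3 of 30 above and 11 below, and TMSB10, a thymosin that holds actin monomers, read 811 CPM against 1320 to 1729. Its gap of -0.70 became -0.20 with the trend on length and GC content removed. ERK feedback genes had 4 of 18 above and 1 below, with SPRY1 at 9.96 CPM against 2.08 to 6.14 and DUSP4 at 121 against 57.6 to 79.6.

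Interferon-stimulated genes had 4 of 27 above and 6 below, with TRIM22 at 14.6 CPM against 25.4 to 41.9 and ISG15, a ubiquitin-like protein, at 13 against 21.3 to 25.2. Removal of the length and GC trend took the gap of ISG15 from -0.68 to -0.16. The pathway of the target gene was read in the same way. NOD-RIPK2 signalling had 2 of 19 above and 3 below, RIPK2 included, and NF-kB targets 0 of 19 above and 3 below, both under the shares of all genes. NF-kB targets had a median difference of -0.06 in siRIPK2_1 and 0.71 in siNC, and the sign of the former turned when siNC was left out.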

How the data were processed

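The deposited table holds unnormalized counts of reads per Ensembl gene for the 6 libraries. The submitters' processing notes name the tools bedtools, FastQC, HISAT2 and Trimmomatic and the build GRCh38. Versions, the annotation and the strand setting: not given in the sources used here. The members and lists were chosen with earlier results of these data known. CPM used TMM factors (edgeR 4.0.16, R 4.3.3); DESeq2 1.42.0 gave size factors as an alternative. Genes with a mean of 5 CPM or more were kept, 1 was added before log2, and a gene was counted outside at 1.5-fold or more. Gaps and medians were computed in Python 3.11.15 and tested on simulated data. Positions, exon overlaps and 3′ UTRs came from GENCODE release 29, with the principal transcript of longest 3′ UTR taken per gene. Genes open to naming were RIPK2, the 7 genes put forward, the 15 largest gaps each way and up to 4 members per list by gap, other names being marked as chosen later. No difference was tested, since siRIPK2_1 is 1 library, and Dixon's critical value served only to mark values in the closing section. A count of 3 corresponds to 0.0667 to 0.0934 CPM. Not all genes that the rule allows are reported here.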

Additional observations from a re-analysis of the deposited data

Results flagged for a closer look

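Within the 4 siRIPK2 libraries, 146 values were checked for 1 library far from the other 3 (104 genes named in the text and 42 list medians), by the distance to its nearest neighbour as a share of the whole range. Dixon's 95% critical value for 4 samples was passed by 19. Chance passes it in about 1 of 20 groups, and most of the genes were named because siRIPK2_1 lay far out in the same values, so these marks restate that choice and support nothing. Over all 10673 genes, 582 (5.45%) passed it, 193 of them through siRIPK2_1, 145 through siRIPK2_2, 142 through siRIPK2_3 and 102 through siRIPK2_4. siRIPK2_1 was the low library for RARG (0.981), PRAF2 (0.924), PTX3 (0.917), FBN2 (0.913), ANXA2 (0.876), CD164 (0.855), RPS23 (0.844), ELOVL1, a fatty acid elongase (0.840), SNX17 (0.837) and SHKBP1 (0.831). It was the high one for KIT (0.962), ADAMTS15 (0.894), SOX4 (0.883) and PLAU (0.880). By list medians it was low for nuclear oxidative phosphorylation (0.858) and for humoral innate immunity and complement (0.840). Other libraries stood apart for integrins (siRIPK2_2 low, 0.991), chromatin regulators (siRIPK2_2 low, 0.885) and p53 targets (siRIPK2_3 high, 0.870).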

How the results depend on the processing

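No paired analysis was possible because WT and siNC have 1 library each and the numbers of the siRIPK2 libraries pair with nothing. From 169 genes above, the count became 96 with a mean of 20 CPM, 27 at 2-fold, 2356 with no fold minimum, 303 against the other 3 siRIPK2 libraries alone and 521 against WT and siNC alone. From 382 below it became 119 at 2-fold, 2338 with no minimum, 859 against WT and siNC alone and 239 without genes whose exons overlap another. The mean of 20 CPM and the overlap rule also leave fewer genes to count from. Such overlaps occur in 31.3% of all genes tested and in 37.4% of the 382 below. Leaving out each other library in turn gave 198 to 236 above and 425 to 488 below. The heptamer alternatives were chosen after seeing the data. The share of genes below that held it was 54.7% at 2-fold. With 3′ UTRs of 500 to 2000 bases it was 41.4%, against 6.35% of the others. Over any coding transcript it was 38.6% against 13.8% of the others, where the main setting gave 34.8% against 11%. Without each other library it was 32.0% to 34.3%. The median of NOD-RIPK2 signalling, 0.13, was 0.025, 0.011 and 0.042 without siRIPK2_2, siRIPK2_3 and siRIPK2_4, and turned to -0.045 against the other 3 siRIPK2 libraries, -0.034 against WT and siNC and -0.012 with the length and GC trend removed. In all, the sign of a list median turned in 40 of 504 values, over 13 lists whose median was at most 0.21 in size. Of 1247 gap values of named genes under other settings, 16 fell under 1.5-fold and 44 passed it newly. Newly past it were PLAU (0.76), TCF4 (0.68), CYP26B1 (0.60) and KDM3A (0.60) without siNC, CENPF (1.24) and KRT10 (-0.70) without WT, TAB3 (0.74) and LOX (-0.62) without siRIPK2_2, B2M (-2.18), C1S (-0.92), NQO1 (-0.78) and GAA (-0.59) without siRIPK2_3, and KRT16 (-1.15), TMSB4X (-0.85), XBP1 (-0.81), S100A13 (-0.77), S100A10 (-0.70), TTK (0.69) and RIPK2 (-0.59) without siRIPK2_4. No longer past it were ASNS (-0.53), ITGA3 (-0.58), MAP4 (-0.55) and DUSP4 (0.57) with total counts, SPRY1 (0.43) with a pseudocount of 5, and SMARCC1 (0.58) and COL12A1 (0.47) with the trend removed, among others. Leaving out other libraries can only narrow or keep the range of the rest, so in those settings a gap can only widen or stay. The cause of the other changes was not tested. Depth does not limit the named genes, but 1 library and an unknown strand setting do.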

Other observations

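Metabolic genes outside the respiratory chain were also read. ELOVL1, which lengthens very long fatty acids, read 112 CPM in siRIPK2_1 against 247 to 321, and SLC2A3, the neuronal-type glucose transporter GLUT3, 39.0 against 82.7 to 191. EPAS1, the hypoxia-inducible factor HIF-2 alpha, read 176 against 328 to 596, and ANGPTL4, a hypoxia-induced inhibitor of lipoprotein lipase, 207 against 54.2 to 123. In the glycolysis list, 4 of 23 were above and 3 below.

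PLAT, the tissue-type plasminogen activator, read 38 CPM against 17.7 to 22.5, and PLAUR, the urokinase receptor, 51.9 against 63.0 to 102. FOXF2, a forkhead factor of mesenchyme that holds the heptamer in its 3′ UTR, read 16 against 27.8 to 56.3. TCF4, a basic helix-loop-helix factor, read 40.0 against 11.7 to 26.4, a gap of 0.58, just under 1.5-fold. MAP4, a microtubule-binding protein with 3 copies of the heptamer in its coding sequence and none in the 3′ UTR, read 230 against 348 to 514.

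Lists not yet described had few members far out. In HLA class I and antigen presentation, 3 of 18 were above and 4 below. B2M, the light chain of HLA class I, read 48.2 CPM in siRIPK2_1, 64.5 in siRIPK2_3 and 222 to 263 in the other 4, so siRIPK2_3 was low as well. PSMB9, an immunoproteasome subunit, read 33.6 against 45.5 to 54.9. Amino acid transport had 2 of 15 above and 6 below, with SLC3A2, the heavy chain of several transporters, at 375 against 465 to 662. NRF2 and glutathione had 2 of 25 above and 4 below, with NQO1, a quinone reductase, at 125 against 142 to 365, and SRXN1, sulfiredoxin, at 282 against 339 to 482.

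Sterol synthesis had 4 of 22 above and 2 below. Lysosome genes had 3 of 22 above and 3 below, with HEXA, a hexosaminidase subunit, at 102 CPM against 136 to 171, and GAA, the acid glucosidase, at 25.8 against 32.7 to 42.8. Growth factor ligands and receptors had 3 of 21 above and 4 below, with PDGFRA at 138 against 169 to 428 and IGF2R at 700 against 416 to 564. In the hypoxia list, LOX, a collagen crosslinking oxidase, read 139 against 190 to 306, and KDM3A, a histone demethylase, 97.2 against 51.6 to 69.6. Of the NOD-RIPK2 list, TAB3, a TAK1 adaptor, read 45 against 20.9 to 32.3, and RBCK1, a subunit of the linear ubiquitin ligase, 97.1 against 133 to 161. TMSB4X, a thymosin of the actin list, read 351 against 522 to 833.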
